A study of Mus musculus with 6 samples.

Results

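Macrophages carry a set of receptors that hold their activation in check, and 10 genes of that system were followed here: 8 inhibitory or sialic-acid-binding receptors (Sirpa, Siglec1, Siglece, Cd33, Cd300a, Pirb, Lair1 and Cd200r1) and 2 protein tyrosine phosphatases that such receptors recruit (Ptpn6 and Ptpn11). They were chosen by symbol, with earlier results of these data known, and all 10 were found among the 16836 genes of the table. All 10 also passed the filter on low values, which kept 12118 genes with at least 1 CPM (the reads of a gene scaled to a shared library size) in at least 3 libraries. The cells were bone marrow-derived macrophages, which are grown in culture from marrow precursors. One group of 3 libraries came from mice lacking Ube3a (KO, Ube3a-/-) and the other group of 3 from wild-type littermates (WT). Ube3a encodes a ubiquitin ligase. The labels give no treatment, age or strain and do not describe the knockout allele. They also do not say whether each library came from its own animal. The p-values therefore reflect how far these libraries scatter, which may be partly technical.

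Inhibitory receptors of this kind sit in the cell membrane and carry, in the part that reaches into the cell, short tyrosine-centred motifs called ITIMs (immunoreceptor tyrosine-based inhibitory motifs). When the receptor meets its ligand, kinases of the Src family place a phosphate on that tyrosine, and the phosphotyrosine docks the SH2 domains of the phosphatases SHP-1 (encoded by Ptpn6) or SHP-2 (encoded by Ptpn11). SHP-1 removes phosphates from activating signalling proteins and so dampens phagocytosis, cytokine release and integrin signalling, while SHP-2 has roles both in damping and in growth factor signalling. A number of these receptors read marks of healthy self, such as CD47 or sialic acid on neighbouring cells.

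The motifs that link the receptors to the phosphatases are shown as the codons that encode them, because they set apart the receptors that carry a docking site from those that do not. Coding sequences came from the GENCODE M21 transcripts on GRCm38, 1 per gene, and the cytoplasmic part was taken as all residues after the most hydrophobic stretch of 21 residues. An ITIM was counted where isoleucine, leucine, valine or serine, any residue, tyrosine, any 2 residues and then isoleucine, leucine or valine stood in a row. The switch motif ITSM starts with threonine and ends with isoleucine or valine around the same tyrosine spacing. The NPXY motif is asparagine, proline, any residue and tyrosine. In each line below the tyrosine codon is in capitals, and residues are numbered from the start methionine.
Sirpa ITIM, residues 434 to 439: atcacaTACgcagacctg
Sirpa ITIM, residues 475 to 480: ctcaccTATgctgacctg
Sirpa ITIM, residues 499 to 504: tcagagTATgctagtgtc
Sirpa ITSM, residues 458 to 463: acagaaTATgcaagcatt
Siglece ITIM, residues 430 to 435: atacatTATgcgaccctc
Siglece ITSM, residues 453 to 458: acggagTACtcagagata
Cd300a ITIM, residues 260 to 265: gtggaaTATagcacattg
Cd300a ITIM, residues 272 to 277: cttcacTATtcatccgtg
Pirb ITIM, residues 711 to 716: agcctaTATgcttcagtg
Pirb ITIM, residues 792 to 797: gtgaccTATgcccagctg
Pirb ITIM, residues 822 to 827: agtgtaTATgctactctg
Lair1 ITIM, residues 226 to 231: gtgacgTATatccagctg
Lair1 ITIM, residues 255 to 260: agcacaTATgcagccatc
Cd200r1 NPXY, residues 294 to 297: aatccactcTAT

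By this search 5 of the 8 receptors held an ITIM in the cytoplasmic part: Sirpa and Pirb 3 each, Cd300a and Lair1 2 each, and Siglece 1. The other 3 did not, and they differ in what the cytoplasmic part holds instead. Siglec1 had a short one of 35 residues with 0 tyrosines. In Cd33 it was 66 residues long with 1 tyrosine outside the motif, and Cd200r1, known to signal through adaptor proteins of the DOK family, had 67 residues with 1 NPXY motif. The pattern is loose: it occurred somewhere in 47.6% of 12382 proteins encoded by genes of the table, so a match describes the letters and does not show that a site is used.

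The libraries were checked before the members were read. Between 25454862 and 35517269 reads per library fell on the genes of the table. Ube3a had 69.7, 61.2 and 77.0 CPM in KO replicates 1 to 3, against 207.1, 193.7 and 177.6 CPM in WT replicates 1 to 3, and it fell in KO (log2 fold change −1.47, limma adjusted p = 0.00444). Replicate 2 of each genotype stood apart from the other libraries in Xist, the transcript that silences an X chromosome, with 0.90 CPM for KO and 0.50 CPM for WT, against 1087 to 1329 CPM in the other 4. Replicate 2 was therefore not a technical repeat of the other libraries, and the labels give no sex. All 8 macrophage markers looked for were present. They summed to 13571 to 16115 CPM in KO and 14721 to 15558 CPM in WT, most of it Lyz2 (8859 to 11216 CPM). With each marker weighted alike, the mean log2 difference from all 6 libraries was 0.13, 0.08 and −0.01 in KO replicates 1 to 3. In WT replicates 1 to 3 it was −0.19, 0.14 and −0.15. The log2 fold changes of the 8 markers ran from −0.07 to 0.54. At an unadjusted limma p under 0.05, 1 of the 8 was higher in KO, and 0 passed the adjusted threshold. Markers of other cells were scarce. Of 5 T and NK cell markers 0 had a row in the table used here, and the highest sum in any of the 6 libraries was 0.578 CPM for dendritic cells, 4.38 CPM for B cells, 0.106 CPM for mast cells and basophils and 2.25 CPM for stroma. Markers of neutrophils (7 of 9 with a row) summed to 8.24 to 20.8 CPM in KO and 10.5 to 31.9 CPM in WT, and those of stem and progenitor cells (5 of 6 with a row, nearly all of it Cd34) to 25.2 to 34.9 CPM in KO and 29.1 to 78.5 CPM in WT. In bulk RNA, fewer cells of a type and less RNA per cell cannot be told apart.

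No inhibitory receptor or phosphatase gene of the 10 passed the test for a difference between KO and WT, and in each of them the libraries of the 2 genotypes overlapped. In each of Sirpa, Pirb, Lair1, Cd200r1, Ptpn6 and Ptpn11, the KO and WT means lay within 10% of each other. Siglec1 varied most, by more between libraries of the same genotype than between the genotypes. Of the 10, 0 passed an adjusted p of 0.05 (limma on log2(CPM + 1), Benjamini-Hochberg adjustment over 12118 genes), where 0.0165% of all genes tested did. At an unadjusted limma p under 0.05 there was 1 member, Cd33, beside 4.13% of all genes, and limma-voom on the recovered reads likewise called 0 and had 1 under an unadjusted 0.05. The counts of members with every KO library above every WT library, or below, were 0 and 0, where 4.41% and 5.55% of all genes were so placed. Of the log2 fold changes 6 were positive and 4 negative, with a median of 0.04 beside 0.0015 over all genes. For 8 of the 10 the 95% interval of the fold change in CPM + 1 stayed inside a 1.5-fold difference in either direction. The same held for 90.4% of all genes, and the exceptions among the 10 were Siglec1 and Cd300a. For the scarce Siglece this scale understates a change in CPM, so its place among the 8 holds for CPM + 1 only.

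**Figure D1:**
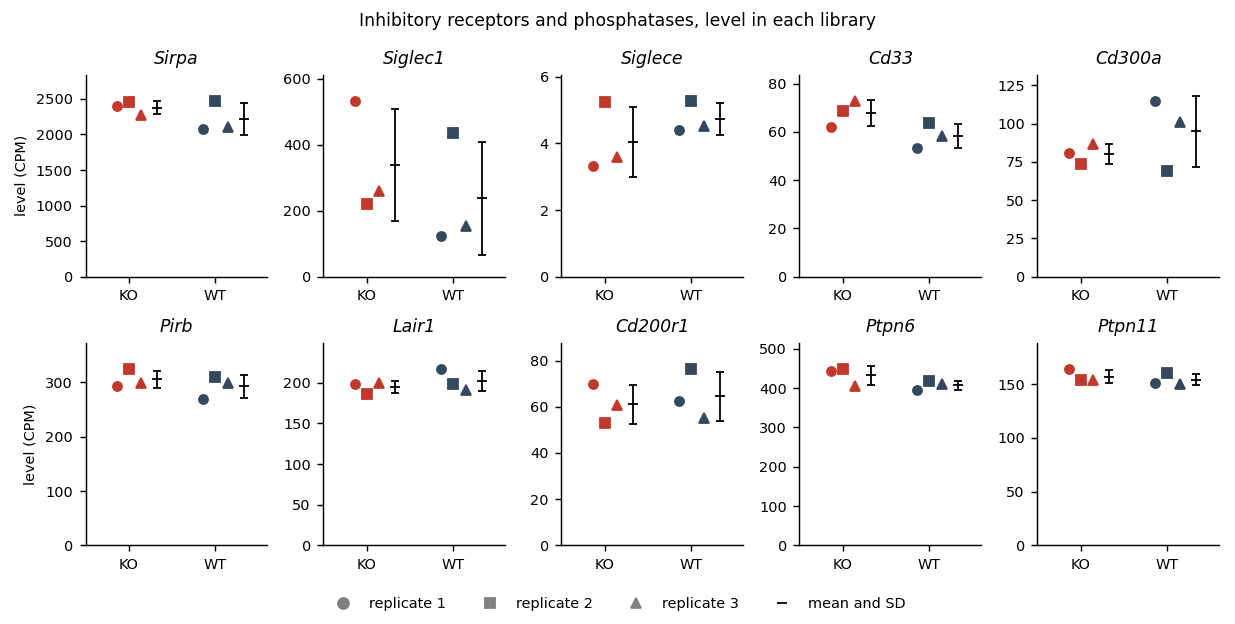
Level in CPM (vertical axes, linear, from 0) of the 10 genes in each of the 3 KO and 3 WT libraries, with replicate numbers as point shapes and the mean with SD as bars. KO and WT points overlap in all 10 panels, and Siglec1 spans the widest range, 125 to 533 CPM.

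Among the receptors, those that bind sialic acid, the terminal sugar of many cell-surface glycans, came in at very different levels. Siglec1 (sialoadhesin, CD169; ENSMUSG00000027322, chromosome 2: 131069220 to 131086765, minus strand, GRCm38) is the long adhesive member that reaches out to sialic acid on other cells and has no ITIM. It had 533, 220.1 and 259.9 CPM in KO replicates 1 to 3, against 125, 434 and 153 CPM in WT replicates 1 to 3. KO replicate 1 and WT replicate 2 were high, WT replicates 1 and 3 were low, and the highest library had 4.27 times the lowest. The means were 337.6 ± 170.2 CPM in KO and 237.3 ± 171.3 CPM in WT (SD, n = 3 each), and the log2 fold change was 0.62 with a 95% interval of −0.50 to 1.74 (limma adjusted p = 0.866; exact permutation test, two-sided, p = 0.5, where 0.1 is the smallest value 3 against 3 allows). Counting error was 1.09% per library, far under this spread, and the within-genotype SD of Siglec1 on the log2 scale exceeded that of 99.6% of the genes tested.

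Single libraries decided the size of the Siglec1 difference. With any 1 library left out, its log2 fold change lay between 0.24, without KO replicate 1, and 1.17, without WT replicate 2, and it was 0.28 without WT replicate 1. Among the 4 libraries with Xist it averaged 396 CPM in KO and 139 CPM in WT, a ratio of 2.86, but in the pair with almost no Xist the KO library had 0.507 times the level of the WT library. The fit on the 4 libraries with Xist, with 2 of each genotype, gave a log2 fold change of 1.42 and an adjusted p of 0.0736 (limma), short of the threshold.

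The libraries high in Siglec1 were also those high in interferon-stimulated genes, a list of 16 genes that cells switch on in response to type I interferon. As log2 differences from the mean of all 6 libraries, KO replicates 1 to 3 had list values of 1.09, −0.92 and 0.17, and WT replicates 1 to 3 had −0.80, 0.93 and −0.47. For Siglec1 the differences were 1.08, −0.19 and 0.05 for KO, and −1.01, 0.79 and −0.72 for WT. KO replicate 1 and WT replicate 2 were highest in both. The order differed at the low end, where KO replicate 2 was lowest for the list and WT replicate 1 for Siglec1. In the list 14 of 16 members had a positive log2 fold change, beside 6112 of all 12118 genes tested. The median was 0.25, and 0 reached an unadjusted limma p of 0.05. These genes were high in the same libraries, so their signs are not independent of each other. The list was chosen with earlier results of these data known. Irf7, a transcription factor that amplifies interferon production, showed the pattern at its steepest among the named members, with 352, 31.3 and 99.9 CPM in KO and 28.9, 239 and 47.7 CPM in WT. The log2 fold change of Irf7 was 0.57, that of Ifit3 0.43, that of Oasl2 0.37 and that of Cmpk2 0.26. The part of this list in the Siglec1 values was not tested.

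**Figure D2:**
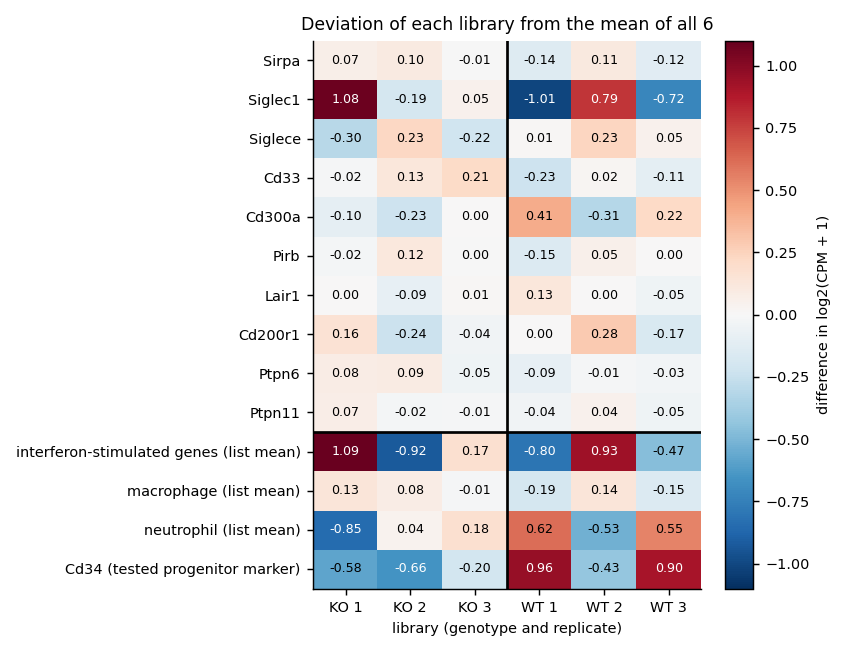
Difference in log2(CPM + 1) of each library (columns, 3 KO then 3 WT) from the mean of all 6, for the 10 genes (upper rows) and for marker lists (lower rows, mean over tested genes), with the value printed in each cell. Siglec1 and the interferon-stimulated list are highest in KO replicate 1 (1.08 and 1.09) and WT replicate 2 (0.79 and 0.93), while Cd34 is highest in WT replicates 1 and 3.

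Closest to the Siglec1 profile over the 6 libraries were 5 genes: Cstb, a cysteine protease inhibitor (Pearson r = 0.9998), Npc2, a lysosomal cholesterol carrier (0.995), the chemokine receptor Cxcr4 (0.995), and the MHC class I genes H2-D1 (0.993) and H2-K1 (0.990). These were picked as the 5 highest of the tested genes that averaged at least 1 CPM, so r is given as a description. Cstb moved within a much narrower range, with 317, 262 and 271 CPM in KO and 232, 304 and 240.4 CPM in WT. H2-D1 had 1668, 972 and 1157 CPM in KO and 766, 1525 and 889 CPM in WT. The likeness is one of shape, with the same libraries high, and not of amplitude.

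Cd33 (Siglec-3; ENSMUSG00000004609, chromosome 7: 43524216 to 43544428, minus strand) is a sialic-acid-binding receptor of myeloid cells, whose mouse form lacked an ITIM in the search above. It had 62.1, 68.8 and 72.9 CPM in KO replicates 1 to 3, against 53.4, 63.6 and 58.1 CPM in WT replicates 1 to 3. Only KO replicate 1 and WT replicate 2 overlapped, and the other libraries were separated by genotype. Cd33 averaged 67.9 ± 5.44 CPM in KO and 58.4 ± 5.10 CPM in WT (SD, n = 3 each), with a log2 fold change of 0.22 (95% interval 0.01 to 0.42) and an unadjusted limma p of 0.0401. After adjustment over all genes tested this did not hold (limma adjusted p = 0.866; exact permutation test, two-sided, p = 0.2). In the authors' deposited table, which rests on the same 6 libraries, its p-value is 0.0344, not adjusted. Its log2 fold change was positive with any 1 library left out, between 0.15 and 0.28. The sign likewise held for every other member but Cd200r1 and Ptpn11.

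Siglece (Siglec-E; ENSMUSG00000030474, chromosome 7: 43651070 to 43660161, minus strand), the main ITIM-bearing Siglec of mouse neutrophils and macrophages, was the scarcest of the 10. It had 3.32, 5.24 and 3.58 CPM in KO replicates 1 to 3, against 4.39, 5.27 and 4.52 CPM in WT replicates 1 to 3. In reads these were 83, 163 and 116 in KO and 137, 149 and 163 in WT, so counting alone adds an error of 8.60% per library. Replicate 2 was the highest library of both genotypes and KO replicates 1 and 3 the lowest of the 6. The log2 fold change of −0.20 (95% interval −0.56 to 0.16, limma adjusted p = 0.866; exact permutation test, two-sided, p = 0.3) became −0.10 without KO replicate 1 and −0.36 without KO replicate 2. The interval reaches down to 0.678-fold in CPM + 1, so a difference of that size could not be told from none. On the deposited log2 CPM, with a smaller count added, the log2 fold change of Siglece was −0.25. The CV between libraries was 25.7% for KO and 10.1% for WT.

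**Figure D3:**
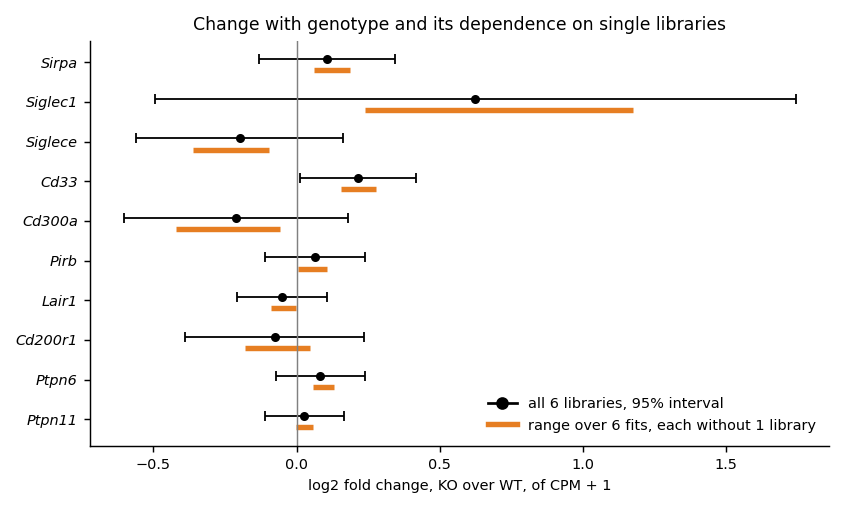
Log2 fold change of CPM + 1, KO over WT (horizontal axis), for each of the 10 genes, with points and thin bars for the fit on all 6 libraries and its 95% interval and thick bars for the range over the 6 fits without 1 library. Only the Cd33 interval, 0.01 to 0.42, lies on a single side of 0 before adjustment, and the Siglec1 interval is the widest.

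Of the receptors that read proteins or lipids, Sirpa was by far the most abundant. Sirpa (SIRPα; ENSMUSG00000037902, chromosome 2: 129592835 to 129632228, plus strand) binds CD47, the signal by which cells avoid being eaten by macrophages. It had 2402, 2450.05 and 2279.7 CPM in KO replicates 1 to 3, against 2074, 2471 and 2105 CPM in WT replicates 1 to 3. WT replicate 2 was the highest of all and the other WT libraries were the lowest. The log2 fold change was 0.10 (95% interval −0.13 to 0.34, limma adjusted p = 0.878; exact permutation test, two-sided, p = 0.4), with means of 2377 ± 87.8 CPM in KO and 2217 ± 221 CPM in WT (SD, n = 3 each). Its CD47 ligand, made by macrophages too, had 356, 273 and 330.2 CPM in KO and 299, 367 and 306 CPM in WT (Cd47, log2 fold change −0.02, 95% interval −0.29 to 0.25).

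Pirb (ENSMUSG00000058818, chromosome 7: 3711409 to 3720391, minus strand), the mouse paired immunoglobulin-like receptor B that binds MHC class I, carries 3 ITIMs. It had 294, 324 and 298.5 CPM in KO replicates 1 to 3, against 269, 309.6 and 299.4 CPM in WT replicates 1 to 3. WT replicate 1 was lowest and KO replicate 2 highest, and the other 4 libraries lay between them, with a log2 fold change of 0.06 (95% interval −0.11 to 0.24, limma adjusted p = 0.892; exact permutation test, two-sided, p = 0.6). Of the stretches of 50 bases in its transcripts, 34.0% also occur in transcripts of other genes, mainly Gm14548, Pira2 and Lilra6. Its count is therefore uncertain, and the share of its reads affected was not measured. Its close relative Pira2, an activating form, had a log2 fold change of −0.06.

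Lair1 (ENSMUSG00000055541, chromosome 7: 4003402 to 4063204, minus strand) binds collagens and the complement component C1q. It had 199, 186 and 199.7 CPM in KO replicates 1 to 3, against 216, 199 and 192 CPM in WT replicates 1 to 3. The range was narrow, with the highest library at 1.16 times the lowest. The log2 fold change was −0.05 (95% interval −0.21 to 0.10, limma adjusted p = 0.895; exact permutation test, two-sided, p = 0.6).

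Cd300a (ENSMUSG00000034652, chromosome 11: 114890041 to 114904654, plus strand) recognises the phospholipids phosphatidylserine and phosphatidylethanolamine that dying cells expose. It had 80.7, 73.6 and 86.5 CPM in KO replicates 1 to 3, against 115, 69.2 and 100.8 CPM in WT replicates 1 to 3. WT replicates 1 and 3 were the highest libraries and WT replicate 2 the lowest, so that the KO values lay inside the WT range. The SD was 6.48 CPM in KO and 23.4 CPM in WT around means of 80.3 CPM in KO and 94.96 CPM in WT (n = 3 each), and the log2 fold change was −0.21 (95% interval −0.60 to 0.18, limma adjusted p = 0.866; exact permutation test, two-sided, p = 0.4). Without WT replicate 2 it was −0.42 and without WT replicate 1 it was −0.06. Neutrophil markers summed to 8.24, 18.2 and 20.8 CPM in KO replicates 1 to 3, against 31.9, 10.5 and 26.7 CPM in WT replicates 1 to 3. Of 6 stem and progenitor markers only Cd34 passed the filter, so the values that follow are those of 1 gene. Cd34 had 25.8, 24.5 and 34.0 CPM in KO, against 77.3, 28.9 and 74.1 CPM in WT. Both were highest in the same WT replicates 1 and 3 as Cd300a. The part of these markers in the Cd300a values was not tested.

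Cd200r1 (ENSMUSG00000022667, chromosome 16: 44765736 to 44794978, plus strand) is the receptor for CD200, a surface protein that calms myeloid cells. It had 69.8, 52.8 and 60.7 CPM in KO replicates 1 to 3, against 62.4, 76.2 and 55.3 CPM in WT replicates 1 to 3. The replicate 2 libraries were the lowest and the highest of all 6, with 52.8 CPM for KO and 76.2 CPM for WT. The log2 fold change was −0.08 (95% interval −0.39 to 0.24, limma adjusted p = 0.918; exact permutation test, two-sided, p = 0.6) and it turned positive without KO replicate 2 (0.02) or WT replicate 2 (0.05). Its ligand gene Cd200 was under the filter, with 0.28, 0.032 and 0.031 CPM in KO, against 0.16, 0.11 and 0.11 CPM in WT.

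The phosphatases had the steadiest levels. Ptpn6, encoding SHP-1 (ENSMUSG00000004266, chromosome 6: 124720707 to 124738714, minus strand), had 444, 447 and 405 CPM in KO replicates 1 to 3, against 395, 417 and 411 CPM in WT replicates 1 to 3. KO replicates 1 and 2 were above all WT libraries and KO replicate 3 lay inside the WT range. The means of 432.1 ± 23.8 CPM in KO and 407.6 ± 11.4 CPM in WT (SD, n = 3 each) gave a log2 fold change of 0.08 (95% interval −0.07 to 0.24, limma adjusted p = 0.866; exact permutation test, two-sided, p = 0.3). The antisense gene Gm20531 shares 195 bp of exon with Ptpn6 on the opposite strand, and since no source used here states whether the counting used strand, reads in that part cannot be assigned.

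Ptpn11, encoding SHP-2 (ENSMUSG00000043733, chromosome 5: 121130533 to 121191397, minus strand), had 164, 153 and 154 CPM in KO replicates 1 to 3, against 152, 160.3 and 151 CPM in WT replicates 1 to 3. All 6 values lay within a factor of 1.09. The log2 fold change was 0.03 (95% interval −0.11 to 0.16, limma adjusted p = 0.931; exact permutation test, two-sided, p = 0.5). Only 8.05% of the genes tested had a smaller within-genotype SD on the log2 scale. In CPM per kilobase of exon, the ratio of Ptpn6 to Ptpn11 was 7.26, 7.79 and 7.02 for KO replicates 1 to 3. For WT replicates 1 to 3 it was 6.97, 6.95 and 7.30 (exact permutation test, two-sided, p = 0.3). The size of this ratio rests on the annotated exon lengths, 2.802 kb for Ptpn6 and 7.492 kb for Ptpn11.

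Set against each other per length, the 10 transcripts spanned from 468 CPM per kilobase of exon for Sirpa to 2.37 for Siglece, as means of the 6 libraries. After Sirpa came Ptpn6 at 149.8, Pirb at 66.9, Siglec1 at 40.2, Lair1 at 26.5, Ptpn11 at 20.8, Cd200r1 at 18.8, Cd300a at 18.5 and Cd33 at 8.13 CPM per kilobase. Neighbours in this order whose libraries overlapped, and so were not set apart by their spread, were Pirb and Siglec1, Siglec1 and Lair1, Ptpn11 and Cd200r1, and Cd200r1 and Cd300a. The other 5 neighbouring pairs did not overlap in any library. Exon length was the merged length of all exons that GENCODE M21 gives for a gene. The annotation used for counting is not stated, and the spread between libraries does not include an error in that length. The order therefore holds for these lengths only.

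**Figure D4:**
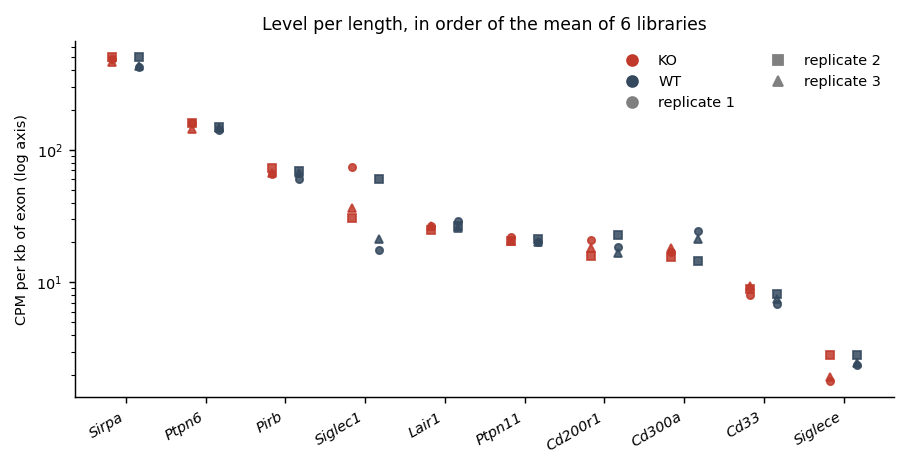
Level in CPM per kilobase of exon (vertical axis, log scale) of each of the 10 transcripts in the 3 KO and 3 WT libraries, ordered by the mean of all 6. Sirpa lies near 468 and Siglece near 2.37, and KO and WT points overlap in every column.

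Counted together, the 8 receptors summed to 3644, 3380.2 and 3261 CPM in KO replicates 1 to 3, against 2918, 3628 and 2968 CPM in WT replicates 1 to 3. WT replicate 2 lay among the KO values and the other WT libraries below them (exact permutation test, two-sided, p = 0.3). Sirpa alone made up 65.9% to 72.5% of that sum. The 5 receptors with an ITIM summed to 2979, 3038 and 2868 CPM in KO and to 2678, 3054 and 2701 CPM in WT, with WT replicate 2 above every KO library and the other WT libraries below them (exact permutation test, two-sided, p = 0.4).

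Of the 10 genes, 4 (Siglece, Cd33, Pirb and Lair1) lie on chromosome 7, which also carries Ube3a. Their distance from Ube3a is 15.6 Mb for Siglece, 15.7 Mb for Cd33, 55.5 Mb for Pirb and 55.2 Mb for Lair1. Cd33 and Pirb had positive log2 fold changes, and Siglece and Lair1 negative ones.

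The rest of the pathway is covered by 7 further lists with 135 genes in all. In the table were 122 of them and 116 passed the filter, of which 0 passed the adjusted threshold (limma) and 5 had an unadjusted limma p under 0.05, or 4.31% beside 4.13% of all genes. By direction 0 were higher and 5 lower in KO, beside 204 higher and 296 lower among all genes tested. They were the receptors Cd101, Clec4a2 and Lilrb4a, the kinase Fgr and the adaptor Pag1. Of these, Cd101 passed the filter only through the WT libraries, where it is higher, so it is no support for a direction. The smallest adjusted p in any of the 7 lists was 0.866. Every KO library lay above every WT library in 2 of the 116 and below in 4, Cd101 included. Over all 12118 genes tested these counts were 534 (4.41%) and 672 (5.55%), so the genes without overlap named below do not stand out by number.

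Other inhibitory receptors of myeloid cells were tested for 18 of 24 genes and had a median log2 fold change of −0.01. Cd101, an immunoglobulin-family receptor of low abundance here, had 0.56, 0.74 and 0.43 CPM in KO, against 1.02, 1.17 and 1.14 CPM in WT. Every KO library was under the filter of 1 CPM and every WT library over it, so Cd101 was tested only through its WT level, and its lack of overlap follows from the filter. Its log2 fold change of −0.42 is therefore given as a description (limma adjusted p = 0.866). Lilrb4a, an ITIM receptor related to Pirb, had 714, 517 and 574 CPM in KO, against 804, 798 and 656 CPM in WT. Its genotypes overlapped through KO replicate 1 (log2 fold change −0.33, limma unadjusted p = 0.0388, adjusted p = 0.866). Clec4a2, a C-type lectin with an ITIM, had a log2 fold change of −0.27 and Pilra, a paired receptor with an ITIM, one of −0.21. The list also held Fcgr2b, the inhibitory IgG receptor, with 110.9 ± 10.8 CPM in KO and 100.9 ± 13.8 CPM in WT (SD, n = 3 each).

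Activating relatives of these receptors and the adaptors they signal through were tested for 13 of 20 genes, with a median log2 fold change of −0.01 and 0 under an unadjusted limma p of 0.05. Hcst, which encodes the adaptor DAP10, had the smallest p of them, with 2.96, 4.66 and 3.30 CPM in KO, against 2.40, 2.87 and 2.99 CPM in WT, with overlap (log2 fold change 0.29). Fcer1g, the Fc receptor gamma chain, had 527, 496 and 443.5 CPM in KO and 377, 507 and 405 CPM in WT (0.19). Pilrb1, the activating partner of Pilra, had a log2 fold change of −0.30 and Sirpb1b, an activating relative of Sirpa, one of 0.27.

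Ligands were tested for 12 of 17 genes, with 0 under an unadjusted limma p of 0.05. The median log2 fold change was 0.18, the highest of the lists but for the interferon-stimulated genes, with 7 positive and 5 negative. Among the positive ones were the C1q chains and the MHC class I genes H2-D1 (0.28) and H2-K1 (0.32). H2-D1 and H2-K1 were also among the 5 genes closest to Siglec1, so the ligands do not vary independently. The C1q chains, ligands of Lair1, were high in KO replicates 1 and 2 and WT replicate 2. C1qa had 400.01, 423 and 245 CPM in KO and 194, 461 and 196 CPM in WT (log2 fold change 0.41, 95% interval −0.39 to 1.21), and C1qc had a log2 fold change of 0.28. Col4a1, a basement membrane collagen chain, was high in WT replicates 1 and 3, with 3.20, 7.20 and 7.83 CPM in KO and 18.0, 2.44 and 21.1 CPM in WT (−0.75, 95% interval −2.28 to 0.78). Spn, which encodes the sialylated glycoprotein CD43, a ligand of Siglec1, had 242, 198.5 and 238 CPM in KO, against 243, 256 and 264 CPM in WT. All KO libraries lay below all WT libraries, by little in KO replicate 1 (log2 fold change −0.17, limma adjusted p = 0.866).

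Genes that make, attach or remove sialic acid, and so build the ligands of the Siglecs, were tested for 19 of 20, with a median log2 fold change of −0.0009 and 0 under an unadjusted limma p of 0.05. St3gal2, a sialyltransferase, had 49.8, 53.4 and 49.5 CPM in KO, against 45.3, 46.8 and 45.8 CPM in WT, without overlap (log2 fold change 0.14, limma adjusted p = 0.866). St3gal5, which makes the ganglioside GM3, had a log2 fold change of −0.20, St6gal1 0.23 and St8sia4 −0.20.

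Kinases, lipid phosphatases and adaptors of the inhibitory pathway were tested for all 25 genes, with a median log2 fold change of 0.02. Lyn, the Src-family kinase best known for phosphorylating ITIMs, had a log2 fold change of −0.06, and Inpp5d, encoding the lipid phosphatase SHIP-1, one of 0.04. Fgr, another Src-family kinase, had 13.4, 22.2 and 15.5 CPM in KO, against 31.8, 19.4 and 28.7 CPM in WT. Only the replicate 2 libraries overlapped (log2 fold change −0.62, limma unadjusted p = 0.0224, adjusted p = 0.866). Pag1, a membrane adaptor that brings the kinase CSK to Src-family kinases, had 61.0, 57.6 and 65.5 CPM in KO, against 75.0, 67.5 and 66.8 CPM in WT, without overlap (−0.18, limma unadjusted p = 0.0416, adjusted p = 0.866). The log2 fold changes were 0.11 for Csk itself and 0.19 for the ubiquitin ligase Cblb. Lyn and Inpp5d here, and Cd47, Cd200, Pira2 and Fcgr2b above, were picked for their roles after their values were seen.

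Other phosphatases of immune signalling were tested for all 13 genes, with a median log2 fold change of −0.02 and 0 under an unadjusted limma p of 0.05. Ptpn12 had 157, 137 and 151 CPM in KO, against 189, 159.6 and 162 CPM in WT, without overlap (log2 fold change −0.20). Ptpn1, which encodes PTP1B, had 144, 168 and 146 CPM in KO, against 126, 139 and 142 CPM in WT, also without overlap (0.17). Both had a limma adjusted p of 0.866. Ptpro had a log2 fold change of 0.21 and Ptprc, encoding CD45, the phosphatase that keeps Src-family kinases active, one of −0.15.

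**Figure D5:**
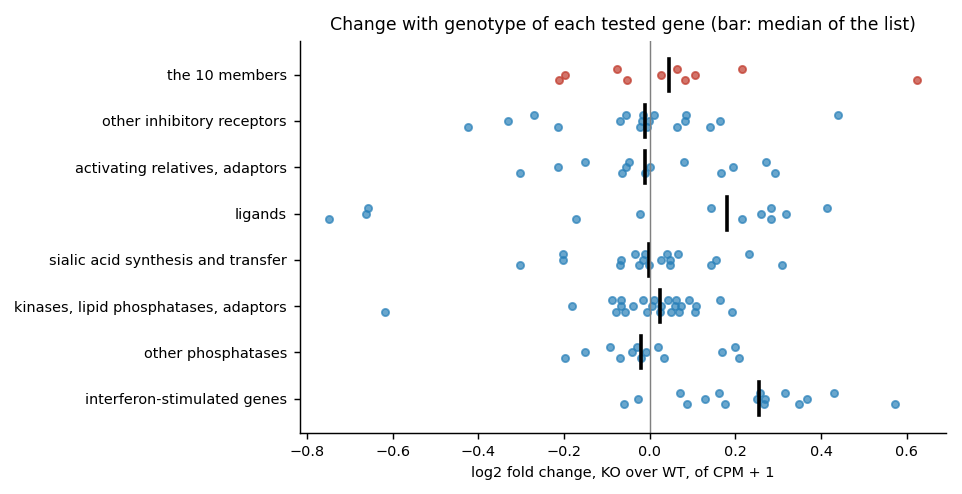
Log2 fold change of CPM + 1, KO over WT (horizontal axis), of each tested gene in the 10-gene set (top row) and in the 7 further lists, with a black bar at the median of each list. The medians lie between −0.02 and 0.25, with the ligands at 0.18 and the interferon-stimulated genes at 0.25.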

How the data were processed

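Messenger RNA libraries were made with a KAPA mRNA HyperPrep kit from RNA purified on Direct-zol columns, per the labels' protocols. The tools used were FastQC 0.11.15, HTSeq 0.11.0, Cufflinks, HISAT2 2.1.0 and Trimmomatic 0.36, per the submitters' processing notes; no source used here states their roles, the genome build, the annotation or the strand setting. The deposited columns are named CPM per the file headers and hold log2 CPM with a prior count, whose decimal marks had been lost. They were restored from the fact that every value must return whole reads (100% whole within 1e-06), which gave reads and the authors' scaled library sizes, with a single read equal to 0.0277 to 0.0400 CPM. The authors' deposited p-values and log2 fold changes served only for comparison. Limma 3.58.1 (R 4.3.3, intensity trend, genotype only) was fitted to log2(CPM + 1) over all 12118 genes that reached 1 CPM in 3 or more libraries. This pseudocount understates changes of low genes. Steps were tested on simulated data. The simulation of the fit gave all genes the same spread, so it does not cover genes as variable as Siglec1. Intervals are at 95%. Gene positions are from GENCODE M21. The text names Ube3a, Xist, the 10 genes, the markers Lyz2 and Cd34, and up to 4 genes per list by smallest p. It also names the 5 genes most like a member that ranged over 2-fold, with others marked as picked later. Members and lists were chosen with earlier results of these data known. 1 gene of a list is not reported here by name, though it stayed in the tests and counts.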

Additional observations from a re-analysis of the deposited data

How the results depend on the processing

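None of the 10 genes passed the adjusted threshold in any of 15 alternative fits, and the sign of the log2 fold change held in 146 of 150 gene-by-fit values. The 4 exceptions were Cd200r1 at 0.15 without the libraries with almost no Xist and at 0.022 and 0.047 without KO or WT replicate 2 (range −0.18 to 0.047 with 1 library left out), and Ptpn11 at −0.0031 without KO replicate 1 (range −0.0031 to 0.055). The smallest adjusted p of any member was 0.0736, for Siglec1 without the libraries with almost no Xist. Over all genes, the count called was 2 in the fit reported, 1 with no filter on low values, 1 with limma-voom, 24 without the libraries with almost no Xist, and 1 to 8 with 1 library left out (8 without WT replicate 2). The median log2 fold change of all genes stayed between −0.0059 and 0.0025. With the replicate number as a block, 2 genes and 0 members were called, and deviations of same-numbered libraries correlated at −0.216, −0.134 and 0.14, so the check did not show that the numbers pair the libraries, and 0 of the 6 correlated best with its own number, although both replicate 2 libraries have almost no Xist. The labels give no batch. Siglece, at 83 to 163 reads, had the largest counting error of the 10 (8.60%).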
